A study of Mus musculus with 2 samples.

Results

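A group of 10 chaperone and stress-response genes of the endoplasmic reticulum (ER), the compartment in which secreted and membrane proteins fold, is described here in cells of mouse lung carcinoma grafts. The 10 genes, Xbp1, Hspa5, Hyou1, Dnajb9, Sdf2l1, Pdia4, Pdia6, Herpud1, Creld2 and Manf, were chosen by name as known ER chaperones and targets of the factor XBP1, and each matched 1 of the 32285 genes listed for both libraries. RNA of single cells was counted as unique molecular identifiers (UMIs) with droplet 3' chemistry. There was 1 library from C57BL/6 mice given the compound labelled PKCi at 3 mg/kg into the peritoneum each day, and 1 from mice given solvent (control). All mice carried CMT167R cells under the skin. This line is labelled wild type and resistant to anti-PD1, and derives from the mouse lung carcinoma line CMT167. The tumours therefore hold an injected line and the host's own cells, tumours were collected at a volume set by the control group, and the number of mice behind a library is not given in the sources used here. With 1 library per treatment no difference between PKCi and control has a replicate check and none was tested, and all intervals are 95% intervals that cover counting error only.

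When unfolded proteins build up in the ER, 3 sensors in its membrane respond. IRE1 splices Xbp1 mRNA, so that it encodes an active transcription factor. ATF6 moves to the Golgi apparatus, where proteases release its own transcription factor domain. PERK slows translation, which favours synthesis of ATF4. XBP1 and ATF6 drive genes of folding, export and degradation through ER stress response elements in their promoters, and ATF4 drives genes of amino acid supply and redox balance. Cells that secrete much protein, such as plasma cells, need XBP1, and tumour cells and myeloid cells of tumours are known to use the same pathway. Xbp1 encodes the spliced factor itself, and 3' counts do not tell spliced from unspliced Xbp1 RNA. Hspa5 (BiP) is the main HSP70 of the ER lumen, Hyou1 is a large HSP70-related protein that acts as its exchange factor, and Dnajb9 (ERdj4) and Sdf2l1 are cofactors of BiP. Pdia4 and Pdia6 are protein disulfide isomerases. Herpud1 is a membrane component of the degradation complex that returns misfolded proteins to the cytosol. Creld2 is an ER protein with disulfide isomerase activity, and Manf is a secreted ER protein that binds BiP.

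Promoter sequences, from 250 bases before to 50 bases after the transcript start in RefSeq on GRCm38.p6, were matched for 8 of the 10 genes. The promoters shown are the 4 that hold a complete stress element, and capitals mark the fixed letters of the ER stress response element (ERSE), which is CCAAT, then 9 bases of any kind, then CCACG, of its variant ERSE-II, which is ATTGG, then 1 base of any kind, then CCACG, and of the C/EBP-ATF composite element bound by ATF4 dimers (TGATGCAA). All were searched on both strands, and no matches overlapped in these promoters. Sequences run 5' to 3' on the strand of the gene.
Hspa5, chr2:34771840-34772139, plus strand: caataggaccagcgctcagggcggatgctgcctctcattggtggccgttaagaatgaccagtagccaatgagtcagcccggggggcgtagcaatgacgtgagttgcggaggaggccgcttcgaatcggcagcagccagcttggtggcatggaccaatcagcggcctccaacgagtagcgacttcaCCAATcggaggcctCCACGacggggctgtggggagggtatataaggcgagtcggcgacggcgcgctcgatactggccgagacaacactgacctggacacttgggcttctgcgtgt
Pdia6, chr12:17266339-17266638, plus strand: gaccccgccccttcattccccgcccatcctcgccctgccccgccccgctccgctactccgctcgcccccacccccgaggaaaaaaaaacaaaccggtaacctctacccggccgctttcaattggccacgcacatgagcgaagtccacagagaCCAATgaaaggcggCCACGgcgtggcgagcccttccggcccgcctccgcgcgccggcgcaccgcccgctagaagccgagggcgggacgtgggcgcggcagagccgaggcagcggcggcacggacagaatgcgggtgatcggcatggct
Creld2, chr15:88819396-88819695, plus strand: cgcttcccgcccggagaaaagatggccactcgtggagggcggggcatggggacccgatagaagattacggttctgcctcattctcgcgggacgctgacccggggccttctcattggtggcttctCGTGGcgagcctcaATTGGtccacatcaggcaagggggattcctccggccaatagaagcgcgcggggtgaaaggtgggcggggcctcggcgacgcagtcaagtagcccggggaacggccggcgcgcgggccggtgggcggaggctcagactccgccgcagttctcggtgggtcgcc
Herpud1, chr8:94386179-94386478, plus strand: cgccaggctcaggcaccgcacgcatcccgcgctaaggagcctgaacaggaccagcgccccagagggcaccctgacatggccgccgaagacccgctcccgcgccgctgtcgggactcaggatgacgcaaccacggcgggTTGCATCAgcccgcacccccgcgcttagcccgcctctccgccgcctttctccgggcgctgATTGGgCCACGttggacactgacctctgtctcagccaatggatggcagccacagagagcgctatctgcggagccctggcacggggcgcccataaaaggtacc

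ERSE lay at positions -65 to -47 of Hspa5, at -98 to -80 of Pdia6 and, on the opposite strand, at -126 to -108 of Creld2, counted so that the base before the start is -1. It was thus in 3 of 8 promoters, against 39 of all 32851 promoters in the table (0.119%). Herpud1 held ERSE-II at -52 to -42, which 12 of all promoters hold (0.0365%), and the composite element at -112 to -105 on the opposite strand, which 294 hold (0.895%). No other of the 8 promoters held either of these. The short core of the XBP1 element UPRE (TGACGTGG) was in 0 of 8 promoters and in 222 of all promoters (0.676%). A match of letters is a description of this window. Hyou1 and Manf were not among the matched genes. The genes lie on chromosome 2 (Hspa5), 6 (Pdia4), 8 (Herpud1), 9 (Hyou1 and Manf), 11 (Xbp1), 12 (Dnajb9 and Pdia6), 15 (Creld2) and 16 (Sdf2l1), and all are annotated as protein coding in GENCODE on GRCm38.

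After filtering, 7078 PKCi cells (median 29550 UMIs) and 6269 control cells (median 32992 UMIs) remained, from totals of 229219749 and 222641855 UMIs. Cells were clustered with the 10 genes and their pathway lists left out, so their levels did not set the clusters. The largest group, called the main population, held 5358 PKCi and 4887 control cells. CPM below means UMIs per 1e6 UMIs of the summed cells. Krt8, a simple-epithelium keratin, stood at 481 CPM in PKCi and 380 CPM in control cells of this population and the leukocyte gene Ptprc at 1.16 and 0.939 CPM. The epithelial gene Epcam was near 0, at 0.00485 and 0.00494 CPM, so the population carries no cell type name here. The smaller classes were named from marker lists. They were monocyte-like (476 PKCi and 571 control cells), macrophage-like (511 and 163), neutrophil-like (166 and 176), T-like (117 and 65), NK-like (51 and 36), dendritic-like (56 and 24), endothelial-like (31 and 19) and fibroblast-like (26 and 24). Another 4.04% of PKCi and 4.85% of control cells stayed unnamed, and 18 barcodes occurred in both libraries. Krt8 in the smaller classes was at 7.11% to 20.9% of its main population level in the PKCi library and at 2.34% to 15.3% in the control library, and free RNA of the main population could give levels of that share.

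In the main population the genes were a little higher in the PKCi library as a group, and Herpud1 stood apart from the others. The summed level of the 10 genes was 1771 CPM in PKCi (364840 UMIs) and 1595 CPM in control cells (322698 UMIs), a ratio of 1.11 (1.105 to 1.116). Hspa5, Pdia6 and Manf, at 550, 508.5 and 371 CPM in PKCi cells, made up most of this sum, so it mainly described these 3. Herpud1, Xbp1 and Manf had the 3 highest ratios. A gene was called higher or lower when one library exceeded the other by at least 25% and the intervals of both levels lay apart, among genes with at least 50 UMIs over both libraries and 20 CPM in either. By this rule 1 of 10 genes, Herpud1, was higher, while 2.39% of all 6391 genes were, and 0 of 10 were lower, while 2.03% of all genes were. Herpud1 also reached 1.5-fold, as did 0.454% of all genes. The median log2 ratio was 0.11 over the 10 genes and -0.03 over all genes, and 9 of the 10 lay above 0, against 41.7% of all genes. Dnajb9 and Hyou1 did not keep this order in cells set to equal depth, described below.

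Xbp1, the transcription factor, had 71.5 CPM in PKCi (70.3 to 72.6) and 57.3 CPM in control cells (56.2 to 58.3), a ratio of 1.248 that lay just under the threshold. Herpud1 had 64.4 CPM in PKCi (63.3 to 65.5) and 39.3 CPM in control cells (38.4 to 40.2), a ratio of 1.64 (1.59 to 1.69). Manf had 371 CPM in PKCi and 317 CPM in control cells, a ratio of 1.17 (1.16 to 1.18). The intervals of these 3 genes lay well apart between the libraries.

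The chaperone core moved less. Hspa5 was at 550 CPM in PKCi and 507 CPM in control cells, a ratio of 1.09 (1.08 to 1.095). Its cofactors had ratios of 1.07 for Hyou1 (25.1 and 23.4 CPM), 1.08 for Sdf2l1 (51.0 and 47.0 CPM) and 1.04 for Dnajb9 (31.19 and 30.02 CPM), and only Dnajb9 of these had intervals that overlapped. The isomerase Pdia4 was at 75.2 CPM in PKCi and 70.2 CPM in control cells, and Pdia6 at 508.5 and 480.3 CPM, ratios of 1.07 and 1.06. Creld2 was at 23.2 CPM in PKCi and 23.9 CPM in control cells, with overlapping intervals (ratio 0.972, 0.934 to 1.01).

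**Figure D1:**
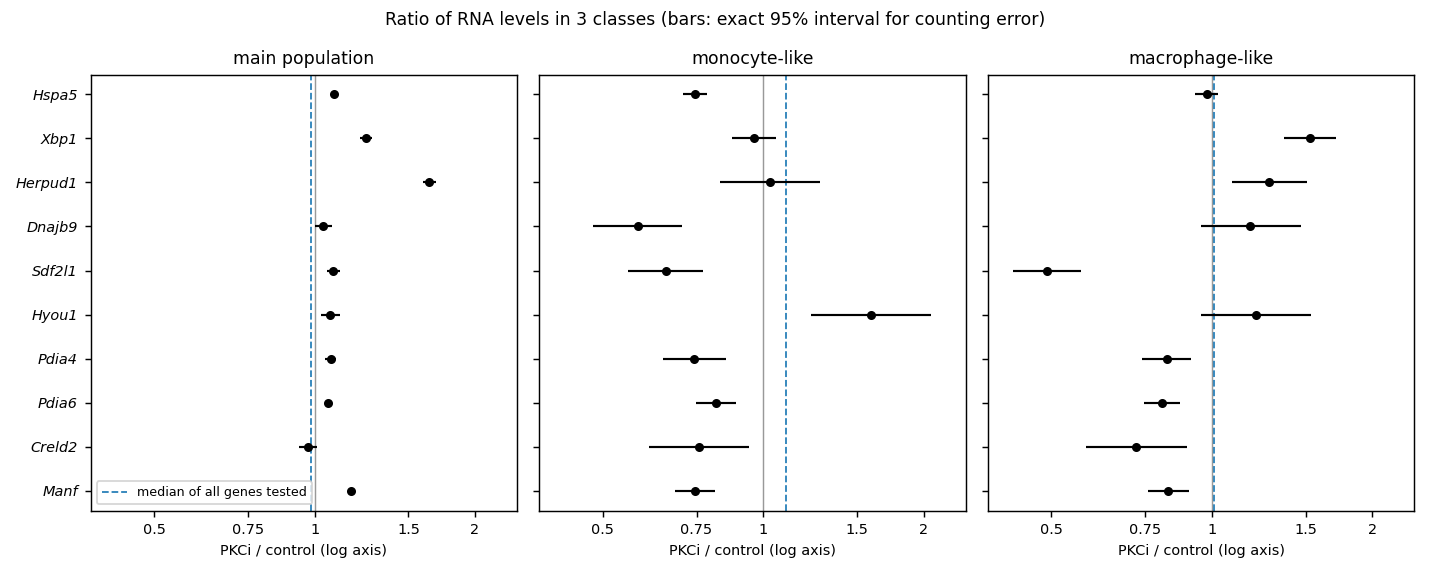
Ratio of the summed level in PKCi over control cells for the 10 genes (log axis) in the main population, monocyte-like and macrophage-like cells, with exact 95% intervals for counting error as bars; the grey line marks equal levels and the dashed line the median of all genes tested. Herpud1 stands farthest right in the main population (1.64), most genes stand left of 1 in monocyte-like cells with Hyou1 on the right (1.59), and Sdf2l1 stands farthest left in macrophage-like cells (0.491).

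The higher Herpud1 level was spread over the main population. Of its 15 clusters, 9 held at least 100 cells in each library, and Herpud1, Xbp1 and Manf were higher in PKCi cells in 9 of 9. The Herpud1 ratio ran from 1.11 in cluster 5, led by Ptn and Sema3a, to 2.14 in cluster 16, led by the predicted gene Gm47080 and by F12, and its interval lay above 1 in 8 of 9. In cluster 16 Herpud1 was at 94.2 CPM in PKCi and 44.0 CPM in control cells, and in cluster 5 at 39.6 and 35.5 CPM. Xbp1 ran from 1.099 to 1.46 and Manf from 1.07 to 1.29, with the interval above 1 in 9 of 9 for both.

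Hspa5 did not move in 1 direction. It was higher in PKCi cells in 7 of 9 clusters and lower in 2, clusters 5 and 8, with ratios of 0.922 and 0.920 and intervals below 1. Creld2 was higher in 5 of 9 clusters and had its lowest ratio, 0.784, in cluster 5. Pdia6 was higher in 6 of 9 clusters, Sdf2l1 in 6, Hyou1 in 7, and Pdia4 and Dnajb9 in 8. The interval lay above 1 in 6 clusters for Pdia6, in 3 each for Sdf2l1, Hyou1 and Pdia4, and in 1 each for Dnajb9 and Creld2. It lay below 1 in 2 clusters for Creld2 and in 1 each for Pdia6 and Dnajb9. The lowest Dnajb9 ratio, 0.790, was in cluster 16.

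All 10 genes were higher in PKCi cells in 3 of the 9 clusters, numbers 2, 3 and 9, but not all by more than counting error. The ratio interval included 1 for Creld2 in each of these clusters, for Dnajb9 in clusters 2 and 3, and for Sdf2l1 and Pdia4 in cluster 9. The share of all genes that were higher in these clusters is not given here. Hspa5 and Manf had their highest ratios in cluster 2. This cluster, with 516 PKCi and 435 control cells, was led by Gdf15, Psph, Trib3, Mthfd2 and Asns, genes that ATF4 is known to drive. Its summed PERK and ATF4 list stood at 3700 CPM in PKCi and 2691 CPM in control cells, against 1632 and 1479 CPM in cluster 5. The list was kept out of the clustering but holds Trib3, Mthfd2 and Asns, so its high sum here is not a separate observation. In cluster 16 the list was nearly as high, at 3453 CPM in PKCi and 2544 CPM in control cells. There Hspa5 had a ratio of 1.002 (0.970 to 1.035) and Dnajb9 of 0.790, while Xbp1 had 1.46 and Herpud1 2.14. In cluster 2 Hspa5 was at 661 CPM in PKCi and 482 CPM in control cells, a ratio of 1.37. Herpud1 was at 95.3 CPM in PKCi and 53.7 CPM in control cells there, its highest level of the 9 clusters in both libraries. Hyou1 had a ratio of 1.34, Sdf2l1 of 1.32, Manf of 1.29 and Xbp1 of 1.45 in the same cells, while Creld2 was at 23.9 and 23.3 CPM with an interval that included 1.

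Levels within a library also differed between clusters. Xbp1 and Dnajb9 were highest in cluster 5 in both libraries, at 87.3 CPM in PKCi and 77.2 CPM in control cells for Xbp1 and at 44.3 CPM in both for Dnajb9. The summed G2/M list, genes of dividing cells, was lowest of the 9 in that cluster, at 741 CPM in PKCi and 789 CPM in control cells. For Dnajb9 in control cells cluster 16 was level with it, at 44.1 CPM with overlapping intervals, and there the G2/M list was at 1825 CPM. Herpud1 was lowest in cluster 9, which held Plk1 and Cdc20 among its leading genes, at 38.7 CPM in PKCi and 29.7 CPM in control cells. In cluster 5 Herpud1 was at 39.6 CPM in PKCi cells, with an interval that overlapped that of cluster 9, and at 35.5 CPM in control cells. Low Herpud1 did not go with the G2/M list over single cells set to equal depth, described below. Pearson r of Herpud1 with that list was 0.119 in PKCi and 0.075 in control cells, the highest of the genes studied in both libraries. Over the 9 clusters the highest level was 2.46 times the lowest for Herpud1 in PKCi and 1.81 times in control cells, and 2.24 and 2.37 times for Hyou1. Manf varied least in the PKCi library, with 1.23 times.

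**Figure D2:**
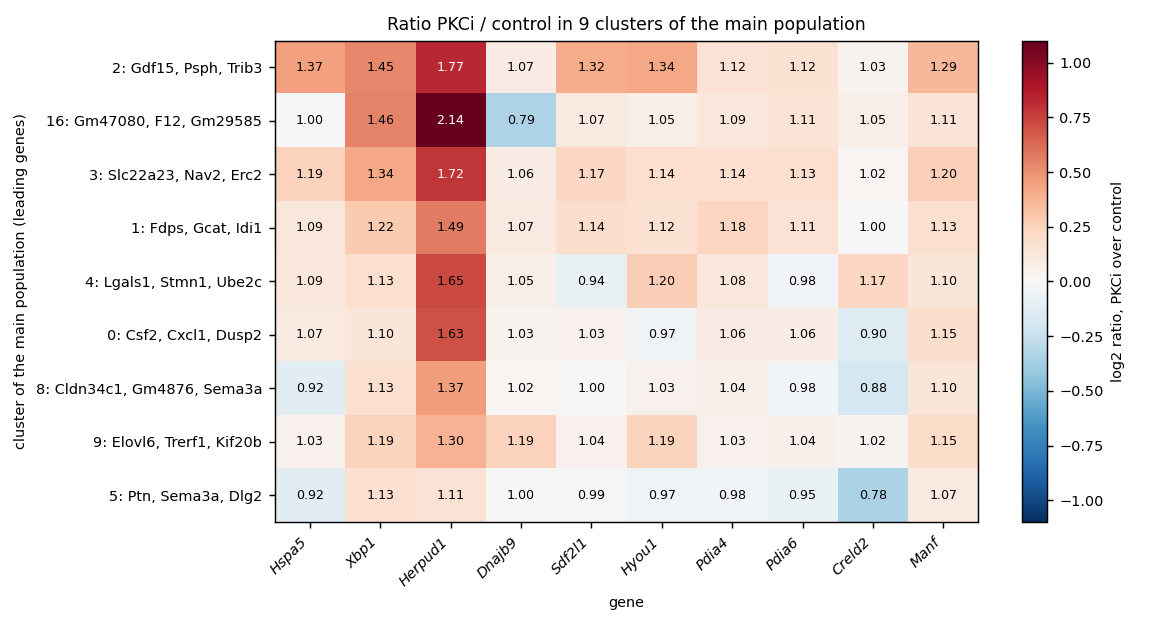
Ratio of PKCi over control level of the 10 genes (columns) in the 9 clusters of the main population with at least 100 cells per library (rows, named by their 3 leading genes and ordered from the highest to the lowest PERK and ATF4 list level in control cells); red is higher and blue lower in PKCi cells. The Herpud1, Xbp1 and Manf columns are red in every row, from 1.11 to 2.14 for Herpud1, while Hspa5 runs from 0.920 to 1.37.

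To set cells of unlike depth side by side, each cell of the main population was thinned to 10000 UMIs, which left out 267 PKCi and 112 control cells that were shallower. The 5091 PKCi cells had a median of 16 UMIs of the 10 genes (5th to 95th percentile 7 to 33), and the 4775 control cells had 15 (6 to 30). The distributions overlapped over nearly their whole range, and 52.6% of PKCi and 44.3% of control cells lay above the control median. A Herpud1 UMI was found in 39.1% of PKCi and 28.4% of control cells, with means of 0.599 and 0.376 per cell. An Xbp1 UMI was found in 47.8% of PKCi and 41.0% of control cells, and a Creld2 UMI in 20.02% and 19.71%. Mean counts of Dnajb9 (0.330 and 0.332), Hyou1 (0.231 and 0.233) and Creld2 (0.2296 and 0.2320) were slightly lower in PKCi than in control cells. The share of cells was higher in PKCi at each Herpud1 count from 1 to 7 UMIs.

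**Figure D3:**
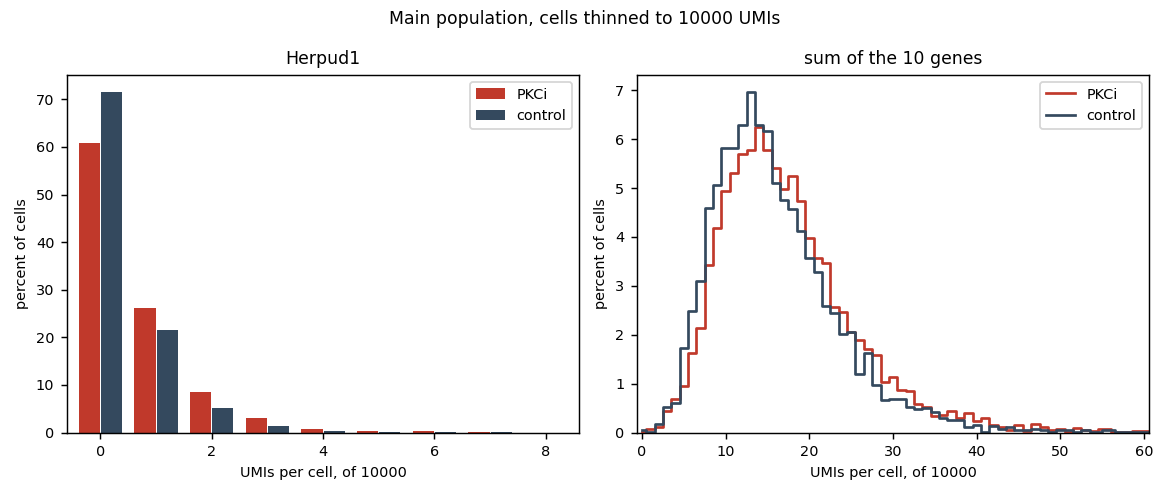
Percent of main population cells by UMIs per cell after thinning to 10000 UMIs, for Herpud1 (left, bars) and for the sum of the 10 genes (right, lines), in 5091 PKCi (red) and 4775 control cells (dark). Fewer PKCi cells have no Herpud1 UMI (60.9%, against 71.6% of control cells), and the summed counts of both libraries overlap, with medians of 16 and 15.

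Across these thinned cells the 10 genes covaried only weakly. Pearson r over the 45 pairs had a median of 0.074 in PKCi and 0.060 in control cells, with a highest value of 0.255 and 0.253 for Hspa5 with Manf, a protein that binds it. These values are descriptions over cells that share a library, and counts near 1 UMI per cell keep r low. Against the sum of the other 9 genes, Hspa5 had r = 0.355 in PKCi and 0.3505 in control cells, Manf 0.338 and 0.324, and Pdia6 0.281 and 0.309. Herpud1 had 0.137 and 0.079.

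Herpud1 and the abundant folding genes Hspa5 and Pdia6 went most with different lists. With the summed list of other ER chaperones and folding enzymes, such as Hsp90b1 and Calr, r was 0.365 in PKCi and 0.391 in control cells for Hspa5, and 0.341 and 0.335 for Pdia6, but 0.050 and 0.043 for Herpud1. Low values were not particular to Herpud1. Among other genes with few UMIs per cell, Dnajb9 had 0.085 and 0.049, Hyou1 0.105 and 0.110, and Creld2 0.105 and 0.104. Xbp1 had 0.144 and 0.140, Sdf2l1 0.228 and 0.193, and Pdia4 0.209 and 0.218. With the summed PERK and ATF4 list, r was 0.286 in PKCi and 0.199 in control cells for Herpud1, the highest of the 10 genes in both libraries. Hspa5 came next with 0.203 and 0.094, and the other 8 lay between -0.048 and 0.046. Herpud1 is also the one gene of the 8 whose promoter, shown above, holds the composite ATF4 element beside an ER stress element. A link between promoter and covariation was not tested.

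**Figure D4:**
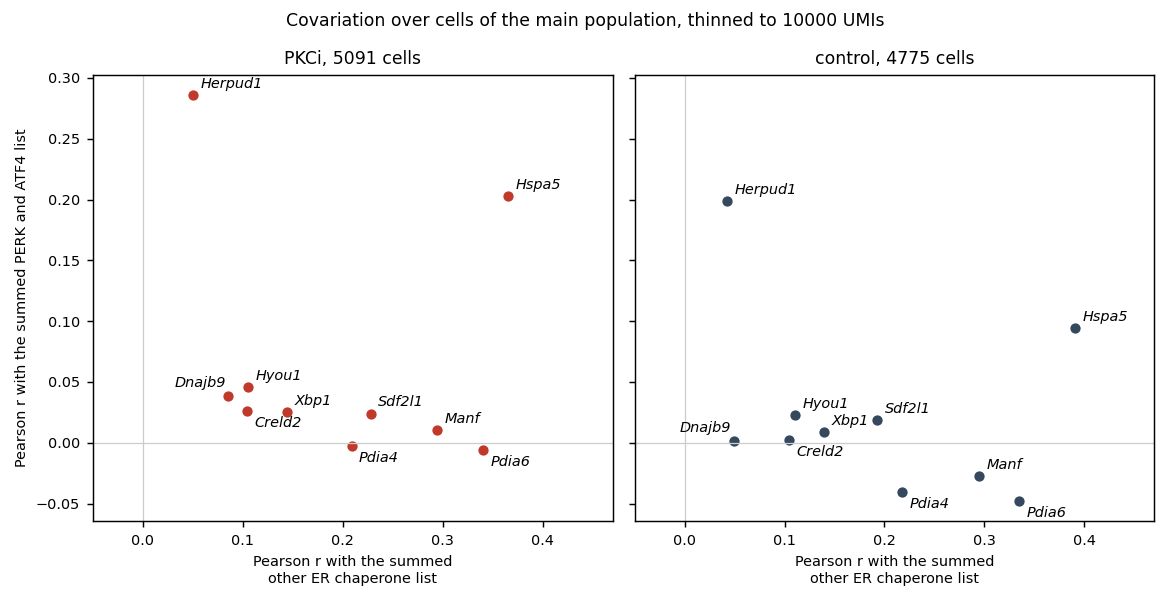
Pearson r over thinned cells of the main population between each of the 10 genes and the summed list of other ER chaperones (x axis) or the summed PERK and ATF4 list (y axis), in PKCi cells (left) and control cells (right). Herpud1 lies at the upper left in both libraries (0.050 and 0.286 in PKCi, 0.043 and 0.199 in control), and Hspa5 lies at the right.

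Among 3200 other genes at 50 CPM or more in the main population of both libraries, the 10 whose counts went most with the summed 10 genes were Hsp90b1, Calr, Ostc, Pdia3, Ssr2, Serpinh1, Serp1, Tmed9, Spcs2 and Ssr3. Hsp90b1, the HSP90 of the ER, had r = 0.420 in PKCi and 0.412 in control cells, and Calr, the lectin chaperone calreticulin, 0.338 and 0.346. The median gene had 0.021 and 0.018. Over the 18 points formed by the classes of both libraries, Calr was again the closest gene on a log2 scale (r = 0.926), followed by Ndufc1, Psmb6, Tmco1, Txndc17, Ndufa2, Rpn1, Mrpl23, Fkbp2 and Hsp90b1. The points differ in depth, and those of 1 library share its free RNA.

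The rest of the ER pathway was close to level in the main population. Of 21 other ER chaperones and folding enzymes measured, 0 were called higher and 1 lower, Ero1l, an oxidase that supplies disulfide bonds (67.7 CPM in PKCi and 95.4 CPM in control cells, ratio 0.710). Of 25 translocon, signal peptide and export genes, 0 were called in either direction. Of 19 degradation genes, 1 was higher, Sel1l (29.7 and 22.3 CPM, 1.33), a partner of Herpud1 in the same complex. Of 9 sensors, proteases and related factors, 2 were higher, Atf6 (95.7 and 69.5 CPM, 1.38) and Creb3l2 (56.7 and 39.3 CPM, 1.44), both factors that proteases release from the membrane. Ero1l, Sel1l, Atf6 and Creb3l2 lay under 1.5-fold and were picked out after their values were seen.

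The PERK and ATF4 list had more calls. Of its 19 measured genes 8 were higher and 0 lower, with a median log2 ratio of 0.29, and 4 reached 1.5-fold. These were Sesn2, a stress-induced sestrin (60.5 CPM in PKCi and 29.4 CPM in control cells, ratio 2.06), Atf3 (254 and 148 CPM, 1.72), Trib3, an inhibitor of ATF4 (39.6 and 23.3 CPM, 1.70), and Nupr1 (208 and 127 CPM, 1.63). The Herpud1 ratio of 1.64 lay in the range of these 4 genes and above the ratio of every chaperone measured. Of 13 hypoxia and glycolysis genes 9 were lower and 0 higher, among them Adm (31.1 and 67.5 CPM, 0.461), Bnip3 (28.4 and 54.3 CPM, 0.522) and Slc2a1 (68.9 and 104 CPM, 0.660). Of 12 G2/M genes 0 were called, and of 10 cytosolic heat shock genes 1 was lower, Hspa1b (11.5 and 26.1 CPM, 0.441). The part of these lists in the Herpud1 difference was not tested.

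Monocyte-like cells showed the opposite order of the libraries for most of the 10 genes. Their summed level was 1469 CPM in PKCi and 1875 CPM in control cells, a ratio of 0.783 (0.758 to 0.809). Of the 10 genes 5 were called lower, against 10.1% of all 5907 genes tested, and 1 was called higher, against 20.9%. At 1.5-fold 2 were lower and 1 higher, against 6.04% and 10.3% of all genes. The median log2 ratio was -0.41 over the 10 genes and 0.14 over all genes. The cells had medians of 6776 UMIs in PKCi and 7850 UMIs in the control library, and the summed monocyte markers were at 7593.5 and 8114.5 CPM with 10 of 10 at 50 CPM or more in both. Markers of other myeloid cells were lower in the same PKCi cells. The summed macrophage markers were at 1293 CPM in PKCi (5 of 8 at 50 CPM or more) and 2047 CPM in control cells (7 of 8), and the summed neutrophil markers at 523 CPM in PKCi (1 of 8, with 2 at 0) and 1172 CPM in control cells (3 of 8). Their part in the lower levels of the 10 genes was not tested.

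Dnajb9, the BiP cofactor, was at 40.6 CPM in PKCi and 69.8 CPM in control monocyte-like cells, a ratio of 0.582 (0.480 to 0.703). Sdf2l1 was at 59.0 CPM in PKCi and 89.8 CPM in control cells (0.657), and Hspa5 at 564 and 756 CPM (0.746). Manf was at 208 CPM in PKCi and 279 CPM in control cells (0.746), and Pdia6 at 218 and 267 CPM (0.816, under the threshold). Pdia4 was at 85.1 CPM in PKCi and 115 CPM in control cells (0.743), a log2 ratio of -0.43 that turned to 0.13 when each library was clustered on its own. The intervals of these 6 genes lay apart. Creld2, at 34.7 CPM in PKCi and 45.7 CPM in control cells, had intervals that overlapped. Hyou1 went the other way, at 33.9 CPM in PKCi (131 UMIs) and 21.3 CPM in control cells (114 UMIs), a ratio of 1.59 (1.23 to 2.07). Xbp1 was at 187 and 194 CPM and Herpud1 at 39.1 and 37.9 CPM, with ratios of 0.962 and 1.03 and intervals that overlapped.

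A single PKCi cell weighed on Hspa5 in this class. It held 251 of the 2179 Hspa5 UMIs, in a cell of 14343 UMIs. With the cell of the most UMIs of the 10 genes left out in each library, Hspa5 was at 501 CPM in PKCi and 744 CPM in control cells, a ratio of 0.673, Creld2 was also called lower (0.721), and no other call changed. Of the other ER chaperones 6 of 20 were higher and 2 lower, with Calr at 376 and 542 CPM (0.694) and Sil1, another exchange factor of BiP, at 25.1 and 13.4 CPM (1.87), which reached 20 CPM in PKCi cells alone. Calr lay under 1.5-fold and was picked out after its value was seen. Of the sensor list Mbtps2, a protease that cuts ATF6, was at 23.5 and 12.9 CPM (1.83, again above 20 CPM in PKCi cells alone), and of the export list Sec24d was at 24.1 and 38.8 CPM (0.620). The PERK and ATF4 list was mixed, with 7 of 17 higher and 6 lower. Mthfd2 (89.8 and 30.4 CPM, 2.95), Asns (35.7 and 14.4 CPM, 2.48), Slc7a5 (40.4 and 18.9 CPM, 2.14) and Psat1 (36.5 and 17.9 CPM, 2.04) were higher, all but Mthfd2 with under 20 CPM in control cells, while Slc3a2 (172 and 268 CPM, 0.642), Ddit4 (55.4 and 85.1 CPM, 0.651) and Slc7a11 (275 and 423 CPM, 0.652) were lower. Of 13 hypoxia and glycolysis genes 6 were lower and 1 higher, among them Ndrg1 (165 and 326 CPM, 0.506), Bnip3 (149 and 273 CPM, 0.547) and Slc2a1 (199 and 328.5 CPM, 0.607), and of the heat shock list Hsph1 was lower (40.9 and 72.8 CPM, 0.562). Of 12 G2/M genes 4 had enough UMIs and CPM to be measured. Top2a was at 56.9 CPM in PKCi and 24.1 CPM in control cells (2.36). Mki67 (31.1 and 10.5 CPM, 2.97), Birc5 (29.8 and 17.2 CPM, 1.73) and Ube2c (26.4 and 17.4 CPM, 1.52) passed the minimum through the PKCi library alone, so the number that were higher says little. The part of hypoxia and dividing cells in the 10 genes was not tested.

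In macrophage-like cells Xbp1 and Herpud1 were called higher and Sdf2l1 and Creld2 lower in PKCi, shares not far from those of all genes. The summed level was 1750 CPM in PKCi and 1870 CPM in control cells, a ratio of 0.936. Xbp1 was at 193 CPM in PKCi and 127 CPM in control cells, a ratio of 1.53 (1.37 to 1.71). Herpud1 was at 83.5 CPM in PKCi and 65.1 CPM in control cells, a ratio of 1.28 (1.09 to 1.51). These 2 of 10 were called higher, against 15.4% of all 6507 genes. Sdf2l1 was at 55.0 CPM in PKCi and 112 CPM in control cells, a ratio of 0.491 (0.424 to 0.570), and Creld2 at 32.2 and 44.7 CPM (0.721). These 2 of 10 were called lower, against 12.3% of all genes. At 1.5-fold 1 was higher, Xbp1, and 1 lower, Sdf2l1, against 8.07% and 5.38% of all genes.

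Pdia4 (143 CPM in PKCi and 173 CPM in control cells), Pdia6 (260 and 322 CPM) and Manf (198 and 239 CPM) had ratios of 0.824, 0.808 and 0.829 with intervals apart, short of the threshold. Hspa5, at 703 and 719 CPM, had overlapping intervals, as did Dnajb9 and Hyou1. Other folding enzymes included Fkbp2 (115 and 200 CPM, 0.573) and the cyclophilin Ppib (250 and 404 CPM, 0.620), which were lower, and Ero1l (181 and 93.4 CPM, 1.94), which was higher. Of the export list Srp54a was higher (20.4 and 11.8 CPM, 1.73), with under 20 CPM in control cells. Of the PERK and ATF4 list 7 of 17 were higher and 0 lower, with the cystine transporter gene Slc7a11 (129 and 51.8 CPM, 2.50), Asns (25.9 and 10.5 CPM, 2.46), Mthfd2 (68.9 and 36.6 CPM, 1.88) and Slc7a5 (32.7 and 19.2 CPM, 1.70) highest in ratio, Asns and Slc7a5 with under 20 CPM in control cells. Of 13 hypoxia and glycolysis genes 4 were higher and 0 lower, among them Vegfa (302 and 119 CPM, 2.53) and P4ha1 (144 and 92.7 CPM, 1.56), and of the heat shock list Hspa1b was higher (103 and 36.0 CPM, 2.85). Of 12 G2/M genes 12 were lower, Aurka and Plk1 with under 20 CPM in PKCi cells. The lowest ratios were those of Ube2c (60.8 and 139 CPM, 0.438), Cenpf (31.6 and 71.3 CPM, 0.443), Mki67 (72.8 and 163 CPM, 0.448) and Cenpe (28.6 and 61.1 CPM, 0.469). The PKCi cells were shallower, with a median of 11955 UMIs against 18161 UMIs in control cells, and the summed macrophage markers were at 8731 CPM in PKCi and 11745 CPM in control cells, with 7 of 8 at 50 CPM or more in both. The part of these differences in the 10 genes was not tested.

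The neutrophil-like class gave few UMIs, with medians of 2003.5 UMIs per PKCi cell and 3523.5 UMIs per control cell. Different clusters held it. Of the 166 PKCi cells, 84 were in a cluster led by G0s2, Hdc and Cxcr2 and 77 in one led by Il1f9 and G0s2, which held 8 and 18 control cells. Of the 176 control cells, 104 were in a cluster led by Retnlg and S100a9 and 46 in one led by Retnlg and Ngp, which held 4 and 1 PKCi cells. The summed neutrophil markers were at 61536 CPM in PKCi and 190994 CPM in control cells, with 8 of 8 at 50 CPM or more in both. A further cluster led by Stfa genes, 0.0565% of PKCi and 1.42% of control cells, stayed unnamed because its score was under a threshold set after the data were seen.

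In neutrophil-like cells Xbp1 was at 405 CPM in PKCi (144 UMIs) and 291 CPM in control cells (200 UMIs), a ratio of 1.39 (1.11 to 1.73). Hspa5 was at 494 CPM in PKCi (176 UMIs) and 300 CPM in control cells (206 UMIs), a ratio of 1.65. Manf was at 107 CPM in PKCi (38 UMIs) and 52.4 CPM in control cells (36 UMIs), a ratio of 2.04. These 3 were called higher, of 5 genes with enough UMIs, against 25.9% of all 2262 genes tested, and 0 were lower, against 8.58%. At 1.5-fold 2 were higher, Hspa5 and Manf, against 22.7% of all genes, and 0 lower, against 7.43%. The Xbp1 order did not hold in each cluster, since in the cluster led by Il1f9 Xbp1 was at 293 CPM in PKCi (43 UMIs) and 525 CPM in control cells (20 UMIs). Dnajb9 was at 140 CPM in PKCi and 88.9 CPM in control cells and Pdia6 at 109.55 and 77.2 CPM, with intervals that overlapped for both. Free RNA of the main population could give much of Manf and Pdia6 here. Subtraction of its profile by the Krt8 level left Manf at 57.0 CPM in PKCi and 19.7 CPM in control cells, and Pdia6 at 41.3 and 27.6 CPM. Hspa5 was left at 421 and 248 CPM and Xbp1 at 395 and 285 CPM. Herpud1 was at 42.1 CPM in PKCi (15 UMIs) and 37.9 CPM in control cells (26 UMIs), below the minimum. Sdf2l1 had 1 UMI in PKCi and 4 in control cells, and Hyou1, Pdia4 and Creld2 had 2 to 13, too few for a comparison.

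Other ER genes of neutrophil-like cells went both ways. Of 7 other ER chaperones and folding enzymes measured, 2 were higher, Hsp90b1 (149 and 65.5 CPM, 2.27) and the lectin chaperone gene Canx (95.5 and 45.2 CPM, 2.12), and 2 were lower, Ero1l (357 and 838 CPM, 0.426) and Ppib (70.2 and 131 CPM, 0.536). Of 9 genes of the PERK and ATF4 list 4 were higher and 1 lower, with Slc7a11 (2716 and 942 CPM, 2.88) and Ppp1r15a (669 and 347 CPM, 1.93) past 1.5-fold. Of 10 hypoxia and glycolysis genes 6 were lower, with the lowest ratios for Bnip3 (104 and 366 CPM, 0.284), Ldha (382 and 950 CPM, 0.402), Ero1l and Aldoa (447 and 1044 CPM, 0.428), and 2 were higher, Vegfa (269.7 and 109 CPM, 2.47) and Egln3 (469 and 299 CPM, 1.57). Of 8 heat shock genes 2 were lower, Hsp90aa1 (466 and 816 CPM, 0.572) and Dnaja1 (197 and 320.4 CPM, 0.614). The part of these lists, and of the different clusters behind the class, in the 10 genes was not tested.

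Set across the 9 classes, the 10 genes did not rank the cells in 1 order. Xbp1 and Dnajb9 were highest in neutrophil-like cells in both libraries. Xbp1 there was 6.53 times its lowest level in PKCi and 5.97 times in control cells, and the lowest was in T-like cells in both (61.9 and 48.8 CPM). The main population was second lowest for Xbp1 in both libraries. In control cells the neutrophil-like interval overlapped that of the next class, endothelial-like cells, and in PKCi cells it did not overlap the next, macrophage-like cells. The Dnajb9 interval there overlapped that of the next class, monocyte-like cells, in control. In contrast Sdf2l1, Pdia4, Pdia6, Creld2 and Manf were lowest in neutrophil-like cells in both libraries. Sdf2l1, at 2.81 CPM in PKCi and 5.83 CPM in control cells, lay at or close to what free RNA of the main population could give, since subtraction of its profile by the Krt8 level left -4.04 and 0.968 CPM. The same subtraction left Pdia4 at 9.56 CPM in PKCi and -1.43 CPM in control cells.

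Herpud1 was highest in dendritic-like cells in both libraries, at 221 CPM in PKCi (132 UMIs in 56 cells, 185 to 263) and 116 CPM in control cells (26 UMIs in 24 cells, 75.8 to 170). The PKCi interval was apart from every other class, and the control interval overlapped that of the next class. Both dendritic-like clusters carried it, with few UMIs in control cells. The one led by Ccr7 was at 173 CPM in PKCi (35 UMIs) and 124 CPM in control cells (9 UMIs in 9 cells, 56.8 to 236). The one led by Ccl17 and class II genes was at 246 CPM in PKCi (97 UMIs) and 112 CPM in control cells (17 UMIs in 15 cells, 65.3 to 179). Pdia6 and Manf were highest in the main population in both libraries. The PKCi interval of Pdia6 there overlapped that of fibroblast-like cells, at 452 CPM, and the control interval of Manf overlapped that of NK-like cells, at 293 CPM. Creld2 was highest in NK-like cells, at 41.4 CPM in PKCi and 63.0 CPM in control cells, and Hyou1 in macrophage-like cells, both with intervals that overlapped those of other classes.

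Hspa5 in PKCi was highest in the macrophage-like class (703 CPM) and in control in the monocyte-like class (756 CPM), where the interval overlapped that of macrophage-like cells, and its highest level was 1.88 times its lowest in PKCi and 2.52 times in control cells. Pdia4 was highest in fibroblast-like cells of the PKCi library, at 165 CPM with an interval that overlapped that of macrophage-like cells, and in macrophage-like cells of the control library, at 173 CPM. In fibroblast-like cells, which make much collagen, the control level of Pdia4 was 93.4 CPM. In 5 classes at least one library held fewer than 100 cells, so they entered no count of calls. Among them the intervals lay apart for 4 genes in NK-like cells and 1 each in T-like, dendritic-like (Herpud1) and fibroblast-like cells (Pdia4), and for 0 in endothelial-like cells. In NK-like cells Sdf2l1 was at 46.6 CPM in PKCi (27 UMIs) and 126 CPM in control cells (62 UMIs), Herpud1 at 43.1 and 91.5 CPM, Hspa5 at 438 and 656.5 CPM, and Pdia6 at 183 and 278 CPM. In T-like cells Pdia6 was at 129 CPM in PKCi (79 UMIs) and 206 CPM in control cells (93 UMIs). A single control cell held 37.6% of those 93 UMIs, so this difference rests largely on 1 cell.

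**Figure D5:**
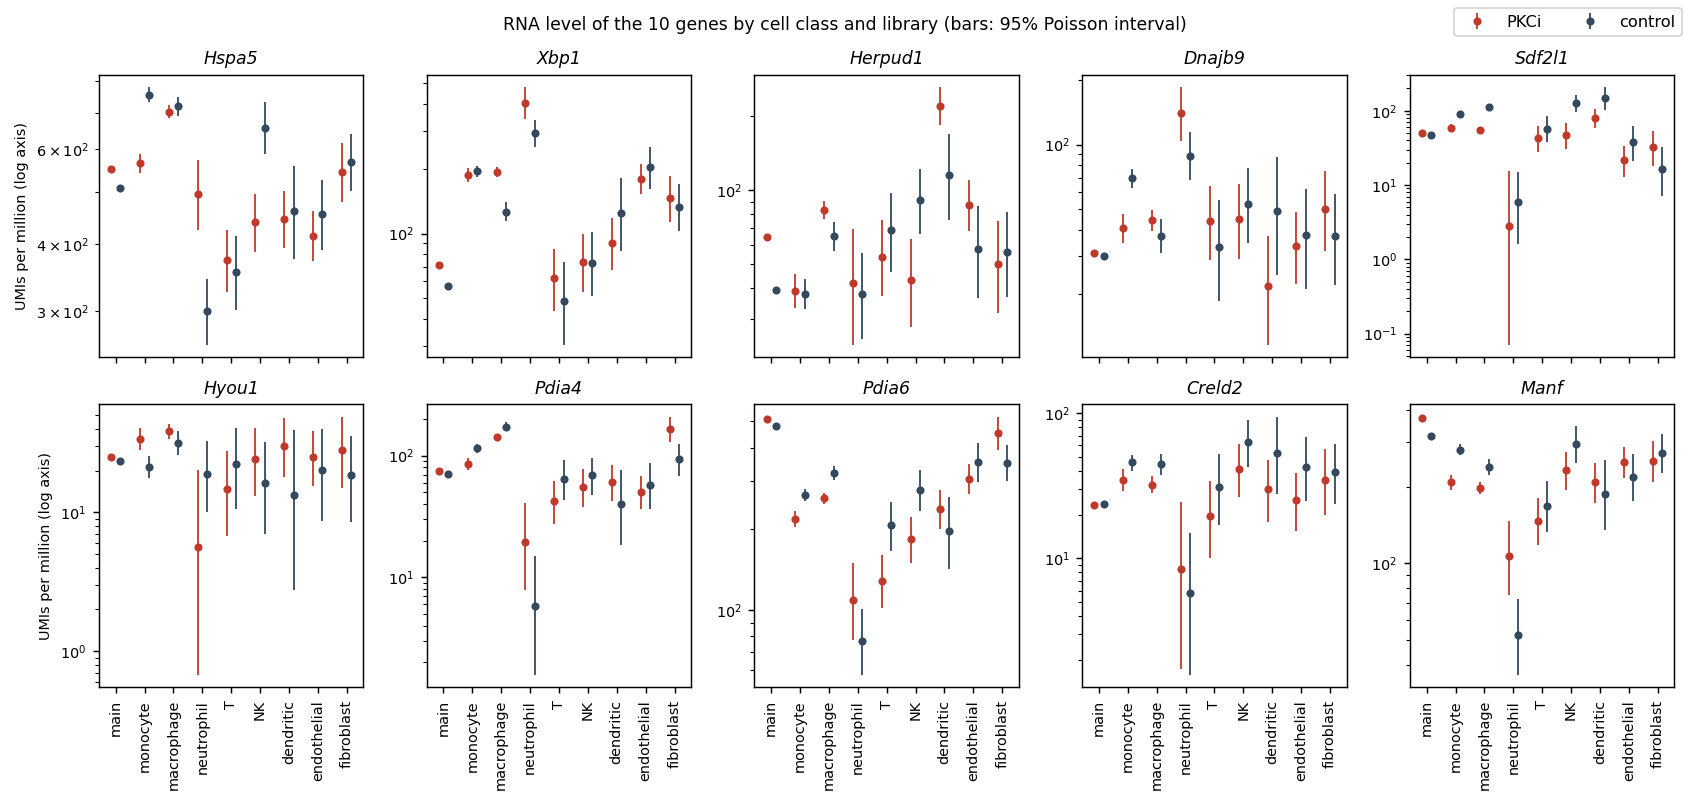
Level of each of the 10 genes in CPM (log axis, a scale per panel) in 9 cell classes, PKCi in red on the left and control in dark on the right of each pair, with 95% Poisson intervals as bars. Herpud1 peaks in dendritic cells (221 CPM in PKCi and 116 CPM in control), Xbp1 and Dnajb9 peak in neutrophil cells, and Sdf2l1 drops there to 2.81 and 5.83 CPM.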

How the data were processed

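Droplet 3' libraries of 1 PKCi and 1 control sample were analysed. The authors deposited raw counts of UMIs for genes and barcodes. Per the file headers these come from Cell Ranger 7.0.0, and the submitters' processing notes also name GRCm38 and Seurat. Barcodes with under 500 genes (200 PKCi, 247 control), over 20% mitochondrial UMIs (47 and 61 of the rest) or called as doublets by Scrublet at an expected rate of 6% (132, or 1.83%, and 111, or 1.74%) were left out. With scanpy 1.11.5, 2000 variable genes, 30 components, 15 neighbours and Leiden resolution 1.0 (0.5 for mixed clusters) were used on both libraries jointly, without batch correction. The variable genes were picked without the 159 genes of the pathway lists, which include the 10 genes.

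A cluster was named when the mean relative level of a marker list reached 0.35, at least 3 markers reached 50 CPM, Krt8 stayed under 250 CPM and its 10 leading genes held no more markers of another class. The main population was formed by clusters that reached no marker list, had a median depth of at least 33.3% of their libraries' and had at least 250 CPM of Krt8. For each class and library the UMIs of its cells were added and divided by their total, with exact Poisson intervals, exact conditional intervals for ratios, and 0.5 count added for log2 ratios. Ratios were called in classes of at least 100 cells per library. UMIs were treated as independent. The interval procedure was tested on simulated data.

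All 10 genes were named in each class of at least 100 cells per library and plotted in every class; in smaller classes only those with intervals apart or at an extreme of the order were named, which is narrower than planned. Of each list, genes past 1.5-fold were named in the classes of at least 100 cells, at most 4 in each direction by size. Members, lists and markers were chosen with earlier results of these data known, and naming thresholds were set after seeing them. The promoters are RefSeq sequences.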

Additional observations from a re-analysis of the deposited data

Results flagged for a closer look

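Several of the 10 genes differed from control in opposite directions in the main population and in a myeloid class, with both ratio intervals clear of 1. There is 1 library per treatment, so the difference between classes was not tested. In monocyte-like cells the log2 ratio of PKCi over control lay below that of the main population by -0.54 for Hspa5, -0.83 for Dnajb9, -0.72 for Sdf2l1, -0.53 for Pdia4, -0.37 for Pdia6 and -0.65 for Manf. For Dnajb9 the direction in the main population was marginal. Its ratio there was 1.04 (1.003 to 1.076) with overlapping level intervals, and in thinned cells its mean was 0.330 UMIs in PKCi and 0.332 UMIs in control cells. The Pdia4 ratio in monocyte-like cells, -0.43, turned to 0.13 when each library was clustered on its own. In macrophage-like cells it differed by -1.14 for Sdf2l1, -0.38 for Pdia4, -0.39 for Pdia6 and -0.50 for Manf. Macrophage-like cells made up 7.22% of PKCi and 2.60% of control cells, and monocyte-like cells 6.73% and 9.11%, and the part of these shares in the differences was not tested. These shares depend on the clustering. The macrophage-like class held 511 PKCi and 163 control cells here, but 617 and 426 when each library was clustered on its own.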

How the results depend on the processing

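The median log2 ratio of the 10 genes kept its sign under every alternative that could be run. It ran from 0.084 to 0.134 in the main population, from -0.553 to -0.298 in monocyte-like cells, from -0.207 to -0.059 in macrophage-like cells and from 0.145 to 0.829 in neutrophil-like cells. The count of genes called higher in the main population was 1. It was 2, with Xbp1 as the added gene, when called doublets were kept, when each library was clustered on its own, with totals without mitochondrial, ribosomal and haemoglobin genes, and with ratios centred on the median gene. Xbp1 lay between 0.29 and 0.34 on the log2 scale in all 11 settings. The log2 ratio of Pdia4 in monocyte-like cells, -0.43, became 0.13 when each library was clustered on its own, which left 219 PKCi and 313 control cells in the class, and the cause was not tested. The median gene lay at a log2 ratio of 0.14 in monocyte-like and 0.27 in neutrophil-like cells. Leaving out the richest cell of each library was chosen after seeing the data. At resolution 0.5 no monocyte-like class formed, and the macrophage-like class grew to 1020 PKCi and 749 control cells, so its value there is not for the same cells. Neutrophil-like cells gave no value with the strict cell filter, with separate clustering or when thinned to 5000 UMIs, for want of PKCi cells. No paired analysis was possible because there is 1 library per treatment. Counting error limits the smaller classes, and animals, tumours and library preparation cannot be told apart from treatment.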

Other observations

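Ero1l, which encodes an ER oxidase that serves disulfide isomerases and is known to respond to hypoxia, differed between the libraries in a way that changed with the class. It was at 67.7 CPM in PKCi and 95.4 CPM in control cells of the main population (ratio 0.710) and at 274 and 365 CPM in monocyte-like cells (0.752). It was at 357 CPM in PKCi and 838 CPM in control neutrophil-like cells (0.426), and at 181 and 93.4 CPM in macrophage-like cells (1.94). It was singled out after its values were seen, and the differences between classes were not tested.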
